A study of Mus musculus with 4 samples.

Results

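Lymphoid-primed multipotent progenitors (LMPPs) that lacked RBPJ were compared with control LMPPs across all genes. LMPPs are bone marrow progenitors that keep lymphoid and myeloid potential, and they were sorted by flow cytometry from C57BL/6 mice. In the control mice RBPJ was expressed throughout, and in the mice called uninduced it was absent. The other 2 libraries of the study came from mice in which doxycycline had switched RBPJ on for 3 or 6 days. They enter here to place the levels of named genes and lists, and as a pair set beside the called genes. Each group is 1 library of droplet-captured single cells. The labels name neither the allele behind the loss of RBPJ, the cells in which it was deleted, the number or age of the mice nor whether control and uninduced mice received doxycycline. Cells were the barcodes of the authors' own cell tables, less those in which S100a8, S100a9, Hba-a1, Hbb-bs, Elane and Pf4 together had 10 or more UMIs, the molecular tags that count captured transcripts. This left 2682 of 2693 control and 2735 of 2769 uninduced cells, 5417 of the 8786 cells that the same rule keeps in the 4 libraries. With 1 library a group no difference has a replicate check, no p-value was computed, and library and group cannot be told apart. Bracketed intervals are at 95% and cover counting error only.

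Notch is a cell surface receptor that is cut when it meets its ligand, and its freed inner part moves to the nucleus. There it binds RBPJ, a DNA-binding protein that holds target genes down with corepressors when Notch is silent and switches them on with Mastermind coactivators when Notch is active. Hes1, a transcriptional repressor, is the best known target in blood progenitors, and Notch signalling through RBPJ directs lymphoid progenitors to the T lineage.

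The libraries held 23418298 control and 20653811 uninduced UMIs in kept cells, with medians of 7923 and 6774 UMIs and 2367 and 2052 genes per cell. For each gene the UMIs of all kept cells were added up and expressed per 1000000 UMIs of the library (CPM), and ratios are uninduced over control CPM. The 7224 genes that reached 10 CPM in at least 1 of these libraries were compared. A cell barcode was found in both libraries 9 times. The sort label was checked against 12 genes that define LMPPs. All 12 were above 10 CPM in both libraries and none reached 1.5-fold. Cd34, a progenitor surface protein, was found in 85.6% of control and 81.2% of uninduced cells after every cell was thinned to 4000 UMIs, and Flt3, a cytokine receptor of LMPPs, in 56.9% and 53.1%. Cells below that depth, 149 control and 353 uninduced, were left out of such shares. Markers of other cell types were low but not all equal. The 16 neutrophil and monocyte genes summed to 133 CPM in control and 179 CPM in uninduced cells, of which Lyz2 gave 116 and 157 CPM. The 10 richest cells held 2.46% of Lyz2 UMIs in control and 22.6% in uninduced. The other 15 were under 10 CPM in both, and 3 were at 0 in control. Of the genes that the cell filter used, S100a8 was still at 10.7 and 21.2 CPM (1.98) and S100a9 at 6.79 and 11.7 CPM (1.73) in kept cells, and both count among the higher genes below. The 15 erythroid genes summed to 299 and 333 CPM, the 13 megakaryocyte genes to 176 and 185 CPM and the 13 stroma and endothelium genes to 73.1 and 68.1 CPM. Their part in the results was not tested.

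Most genes lay close to equal levels. Of 7224 genes, 98.6% were within 1.5-fold, and the median log2 ratio was -0.07. Uninduced cells held 38 genes at 1.5-fold or more above control (0.526% of those compared) and 64 at 1.5-fold or more below (0.886%). At 2-fold the counts were 14 above (0.194%) and 10 below (0.138%). The split between higher and lower depends on the scaling: with edgeR's TMM factors, which raise every log2 ratio by 0.07, 52 genes were higher and 43 lower. The higher genes were led by stress and activation genes, and 18 of the 36 outside the marker genes of the cell filter stood on the lists of immediate early or NF-kB feedback genes. Of the 7224 genes compared, 27 and 16 stood on these lists, which were written with earlier results of these data known. The lower genes were led by Hes1, and 7 of the 64 were named copies of ribosomal protein genes, against 12 of all 7224.

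**Figure D1:**
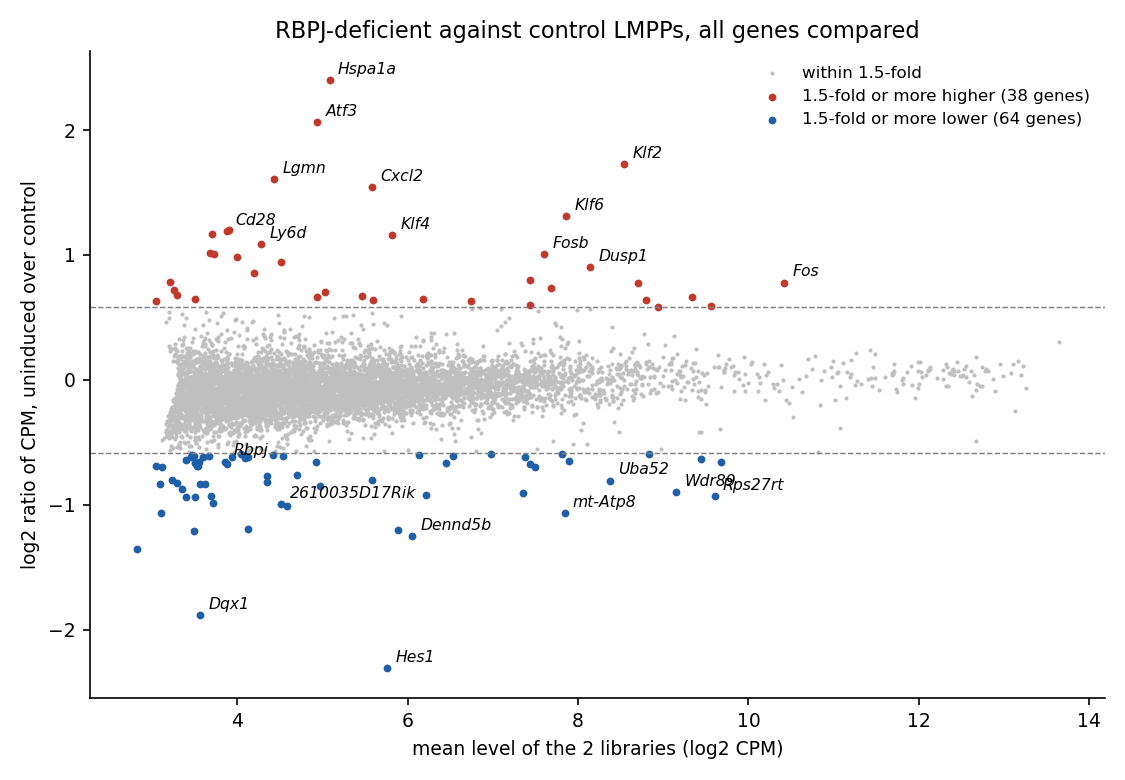
Log2 ratio of CPM (uninduced over control) against the mean level of both libraries in log2 CPM, 1 point per gene for the 7224 genes compared. Dashed lines mark 1.5-fold, red points are the 38 genes above it and blue points the 64 below. Hes1 lies lowest and Hspa1a highest.

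Hes1 (ENSMUSG00000022528, GRCm38 chr16:30064384-30067796, plus strand, protein coding) had the lowest ratio of all genes compared. It stood at 90 CPM in control (86.2 to 93.9), 18.2 CPM in uninduced (16.4 to 20.1), 44.1 CPM in 3-day (40.2 to 48.3) and 132 CPM in 6-day cells (126 to 137). The uninduced library was thus the lowest of the 4, and no pair of these intervals overlapped. The ratio of uninduced to control was 0.20 (0.18 to 0.23). The transcript was detected in fewer cells, and with fewer UMIs where it was detected. A lower level per cell also lowers the share of cells with a UMI, so these cannot be fully told apart. After thinning, 18% of control (16.5 to 19.5) and 6.00% of uninduced cells (5.08 to 7.03) held a Hes1 UMI, against 24.6% and 8.23% unthinned. Among thinned cells 9.04% of control and 1.34% of uninduced cells held 2 or more Hes1 UMIs, and the highest cell held 19 in control and 5 in uninduced. A cell with the transcript held 2.42 UMIs on average in control and 1.38 in uninduced. RNA outside cells, read from barcodes of 10 to 100 UMIs, carried Hes1 at 61.0 CPM in control and 19.4 CPM in uninduced. These barcodes held 1721508 UMIs in control and 464854 in uninduced. Low levels in free RNA thus rest on few UMIs, above all in uninduced, and no interval was computed for them. How much of the uninduced signal came from free RNA was not measured, and no cell type known to lack Hes1 was kept that could set a background share.

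Control cells with and without a Hes1 transcript were also set side by side. Setting the 455 thinned control cells with a Hes1 UMI beside the 2078 without, the 5 genes with the highest ratios were Ly6d, Ccr9, Gm13075, AA467197 and Sdc4. Over all kept control cells, 10 cells held at least 50% of the UMIs of Ly6d and of Gm13075, so their ratios rest on few cells. Ly6d, a surface marker of lymphoid progenitors biased to the B lineage, stood at 22.0 CPM in Hes1-positive and 5.29 CPM in Hes1-negative cells, and Ccr9, a chemokine receptor of thymus-seeding progenitors, at 26.9 and 9.38 CPM. Immediate early genes stood among the 20 highest as well, with Atf3 at 26.4 and 11.8 CPM (2.24), Nr4a1 at 1.92, Nr4a2 at 1.91 and Gadd45b at 1.86. These cells come from 1 library and the genes were chosen by the ratio itself, so the values are a description. Over all cells Ccr9 was at 12.3 CPM in control and 13.1 CPM in uninduced cells (1.07, 0.90 to 1.26). By sex of the cell its ratio was 0.49 in female and 1.38 in male cells, a difference that was not tested. Ly6d was at 12.5 and 26.4 CPM over all cells (2.12, 1.84 to 2.45), or 3.24 when every cell was thinned.

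Rbpj, the targeted gene (ENSMUSG00000039191, GRCm38 chr5:53466152-53657362, plus strand), was detected in every library, at 17.8 CPM in control (16.1 to 19.6), 11.3 CPM in uninduced (9.88 to 12.8), 472 CPM in 3-day and 474 CPM in 6-day cells. The high levels after induction came from a minority of cells: 720 of 1168 thinned 3-day and 1197 of 1912 thinned 6-day cells held no Rbpj UMI, while single cells held up to 31 and 90. Of thinned cells 7.07% of control and 4.20% of uninduced held a UMI, but 0.118% and 0.504% held 2 or more. The highest thinned cell held 2 Rbpj UMIs in control and 7 in uninduced. The ratio of uninduced to control was 0.64 (0.54 to 0.75). This call is lost in thinned cells, where the ratio was 0.72, in male cells (0.75) and, narrowly, with DESeq2 size factors (0.669). The labels do not say which part of the gene was deleted, so a 3' tag does not measure remaining protein. In RNA outside cells Rbpj stood at 17.4 CPM in control and 4.30 CPM in uninduced, the latter from few UMIs.

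The rest of the Notch pathway showed little difference at this size. Of the receptors, Notch1, the receptor that drives T lineage commitment, stood at 56.4 CPM in control and 51.3 CPM in uninduced cells (0.91, 0.84 to 0.99), and Notch2, the receptor of marginal zone B cell development, at 27.3 and 31.6 CPM (1.16, 1.03 to 1.29). Notch3 was at 0 UMIs in uninduced cells and 0.0427 CPM in control, and Notch4 at 2.13 and 2.14 CPM. All 6 ligand genes on the list were under 10 CPM in both libraries. Lfng, a fringe enzyme that adds sugar to Notch and tunes its response to ligands, stood at 21.4 CPM in control and 14.6 CPM in uninduced cells (0.68, 0.59 to 0.79), just short of the 1.5-fold line. All 5 genes of fringe and Notch glycosylation had ratios below 1, with a median log2 ratio of -0.23. The median of all 7224 genes was -0.07, so ratios below 1 were the more common. The 7 processing genes compared had a median of -0.11, the 9 corepressors -0.15 and the 8 genes of inhibition and turnover -0.08, and none of these reached 1.5-fold. In the nuclear complex Rbpj itself was the only one of 5 to do so.

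Among 23 Notch target genes 8 could be compared, and Hes1 alone reached 1.5-fold. The other 7 lay between 0.93 for Ccnd3, the cyclin D3 gene (112 CPM in control and 105 CPM in uninduced), and 1.45 for Rel, the c-Rel subunit of NF-kB (39.1 and 56.7 CPM). The remaining 15 were under 10 CPM in both libraries and not read as calls, among them Nrarp, a feedback inhibitor of Notch, at 3.89 CPM in control and 6.59 CPM in uninduced cells (1.69, 1.29 to 2.24), and Hes5, a relative of Hes1, at 4.65 and 5.08 CPM (1.09, 0.83 to 1.44). Hes6, the other HES family gene above 10 CPM, was at 113 and 103 CPM (0.91, 0.86 to 0.97). Il2ra and Heyl had no UMI in either library. The largest difference among early T cell genes was in Cd28, the costimulatory receptor of T cells (GRCm38 chr1:60716800-60773359, plus strand), which stood at 8.92 CPM in control, 20.4 CPM in uninduced, 11.4 CPM in 3-day and 10.2 CPM in 6-day cells. The uninduced level lay above the other 3, whose values were close to each other. Its ratio was 2.28 (1.93 to 2.71), and 2.92% of control and 7.18% of uninduced thinned cells held a UMI. At this low level, more cells with the transcript and more transcript per cell cannot be told apart. In RNA outside cells Cd28 was at 4.65 CPM in control and 21.5 CPM in uninduced, both from few UMIs. Of the other early T cell genes compared, the signalling genes Lat and Lck were at 0.87 and 0.93, and Gata3 and Tcf7 were under 10 CPM.

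The immediate early genes, which cells switch on within minutes of a stimulus and which tissue handling also induces, formed the largest group among the higher genes. Of 34 on the list 27 were compared, and 12 were 1.5-fold or more higher and 0 lower. Of all genes 0.526% were higher, but the list was written with earlier results of these data known, so the counts are a description. The ratio was above 1 in 26, with Nr4a2 (0.89, 0.79 to 1.00) as the exception. The median log2 ratio was 0.57. Klf2, a zinc finger factor that keeps lymphocytes quiescent and directs their homing (GRCm38 chr8:72319033-72321656, plus strand), stood at 172 CPM in control, 571 CPM in uninduced, 552 CPM in 3-day and 189 CPM in 6-day cells (3.31 for uninduced over control, 3.19 to 3.43). Klf6, its relative, stood at 133, 330, 373 and 111 CPM in the same order (2.48, 2.37 to 2.58). Control and 6-day cells were low and uninduced and 3-day cells high for both genes. Atf3, a stress-induced repressor of the ATF family, stood at 11.8, 49.4, 43.4 and 24.2 CPM (4.18, 3.66 to 4.79).

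The AP-1 members of the list followed. Fos stood at 1007 CPM in control, 1726 CPM in uninduced, 1344 CPM in 3-day and 856 CPM in 6-day cells (1.72, 1.69 to 1.74). Fosb was at 129 and 259 CPM (2.01, 1.92 to 2.10), Jun at 499 and 792 CPM (1.59, 1.55 to 1.63) and Jund at 604 and 908 CPM, just past the line (1.5, 1.47 to 1.54). Junb stayed under the line, at 492 and 628 CPM (1.28, 1.25 to 1.31). Dusp1, a phosphatase that switches MAP kinases off, was at 196 and 367 CPM (1.87, 1.80 to 1.94), and a Dusp1 UMI was found in 46.2% of control and 66.2% of uninduced thinned cells. The small GTPase gene Rhob (1.55), the orphan receptor gene Nr4a1 (1.52) and the small MAF factor gene Maff (2.25) complete the 12 with Klf4, a pluripotency factor, at 35 and 78.0 CPM (2.23, 2.05 to 2.43).

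Per-cell counts differed from the low to the high end of the distribution. In cells thinned to 4000 UMIs, the 34 genes together held a median of 21 UMIs in control and 33 in uninduced cells. The 10th percentile was 7 UMIs in control and 13 in uninduced, and the 90th was 47 and 67. The 3-day cells had a median of 31 and the 6-day cells of 22. Cells without cycling UMIs held more of these transcripts in every library, with medians of 29 in control and 43 in uninduced, against 18 and 27 in cells with cycling UMIs. RNA outside cells differed in the same direction: Klf2 stood there at 238 CPM in control and 719 CPM in uninduced, Atf3 at 16.3 and 83.9 CPM, Klf6 at 142 and 260 CPM, Dusp1 at 307 and 488 CPM and Fosb at 114 and 245 CPM. These levels were near or above those of the cells for most of the 5 genes, and the part of free RNA in the per-cell counts was not tested.

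**Figure D2:**
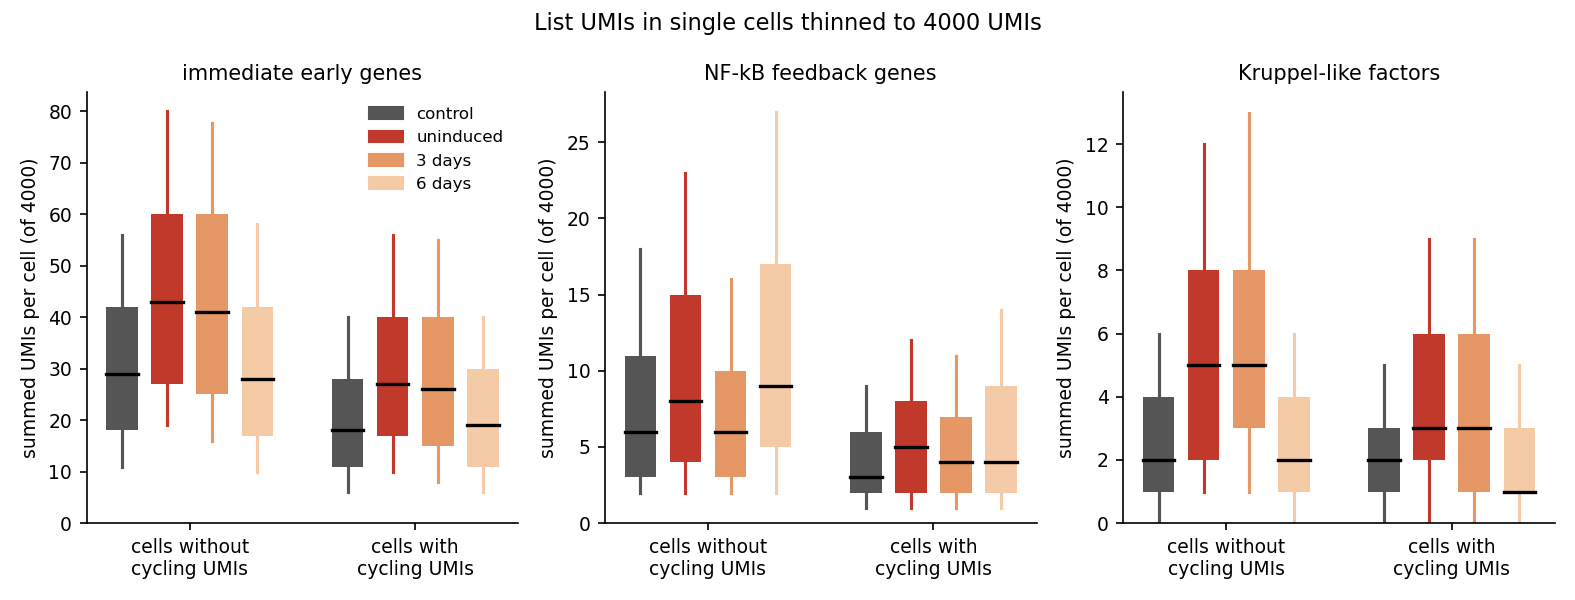
Summed UMIs of 3 gene lists in single cells thinned to 4000 UMIs, in cells without and with cycling UMIs of each library. Black lines are medians, boxes run from the lower to the upper quartile and thin lines from the 10th to the 90th percentile of cells. The immediate early and Kruppel-like lists are high in uninduced and 3-day cells, with immediate early medians of 43 and 41 against 29 and 28 in control and 6-day cells without cycling UMIs.

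NF-kB feedback genes, which are induced by the inflammatory factor NF-kB and in part restrain it, were higher as well. Of 16 compared 6 were 1.5-fold or more higher, against 0.526% of all genes, and 0 lower. This list too was written with earlier results of these data known. The median log2 ratio was 0.39, and Nfkb1 was the only one below 1 (0.91, 0.85 to 0.98). Cxcl2, a neutrophil chemokine, stood at 24.4 CPM in control, 71.2 CPM in uninduced, 124 CPM in 3-day and 139 CPM in 6-day cells (2.92, 2.65 to 3.22), so here control was the lowest library. The 10 richest uninduced cells held 16.9% of its UMIs. Tnfaip3, which encodes the inhibitor A20, stood at 9.10, 20.9, 21.1 and 17.7 CPM (2.30, 1.95 to 2.72), and Nfkbia, the gene of the inhibitor I-kappa-B alpha, at 154, 257, 247 and 267 CPM (1.66, 1.59 to 1.74). Nfkbiz (1.57) and the chemokine genes Ccl3 (1.5) and Ccl4 (1.56) made up the 6. The Kruppel-like factors, of which 3 stand on the immediate early list too, had 3 of 8 at 1.5-fold and a median of 0.41, with Klf3, a repressor, at 41.8 and 34.5 CPM (0.82, 0.75 to 0.91).

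Hspa1a, an inducible HSP70 chaperone (GRCm38 chr17:34969190-34972156, minus strand), had the highest ratio of all, at 10.8 CPM in control, 57.0 CPM in uninduced, 451 CPM in 3-day and 19.3 CPM in 6-day cells (5.27, 4.60 to 6.07). Heat shock genes did not share it as a group: of 15 compared, Hspa1a and Dnajb1, an HSP40 cochaperone gene (126 and 220 CPM, 1.74, 1.66 to 1.83), were the only 2 at 1.5-fold, the median log2 ratio was 0.02, and Chordc1, an HSP90 cochaperone gene, stood at 44.6 and 33.6 CPM (0.75, 0.68 to 0.83). The 250 bases before the RefSeq start of Hspa1a (GRCm38.p6, chr17:34972157-34972406, minus strand) are shown because this gene lies highest. A search of both strands found 1 match to GAANNTTC, the core of a heat shock element, here in capitals, and none to the RBPJ core TGGGAA.
Hspa1a: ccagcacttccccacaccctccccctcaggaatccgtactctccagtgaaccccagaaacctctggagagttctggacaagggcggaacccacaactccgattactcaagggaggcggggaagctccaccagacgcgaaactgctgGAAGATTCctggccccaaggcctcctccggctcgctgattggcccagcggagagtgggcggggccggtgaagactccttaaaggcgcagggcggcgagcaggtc
GAANNTTC was found in 4.91% of the 5636 promoters of compared genes with an entry, 7.69% of the 26 of higher genes and 7.69% of the 39 of lower genes.

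The other 16 higher genes stood on none of these 3 lists. Lgmn, a lysosomal protease (10.7 CPM in control and 32.6 CPM in uninduced, 3.05, 2.64 to 3.54), was found in 3.32% of control and 11.5% of uninduced thinned cells. Cd69, an early activation antigen that retains lymphocytes in tissue, stood at 308 and 526 CPM (1.71, 1.66 to 1.76). Phlda1, a pleckstrin-like protein gene, was at 8.45 and 17.1 CPM (2.02, 1.69 to 2.42), the noncoding RNA Gm26532 at 15.7 and 30.2 CPM (1.92, 1.69 to 2.20) and Plk2, a stress-responsive kinase gene, at 13.1 and 23.6 CPM (1.81, 1.56 to 2.09). Ly6d differed otherwise from most: only 1.70% of control and 2.64% of uninduced thinned cells held a UMI, but 1.95 UMIs in each such control cell against 4.06 in each such uninduced cell, and 10 cells held 54.5% and 48.3% of all its UMIs. Ccl5, a T cell chemokine, reached 2.01 through few cells, since 10 cells held at least 50% of its UMIs where it was higher. Of the other lists, the 26 interferon response genes had a median log2 ratio of 0.20 with none at 1.5-fold, led by Ifit1 (7.47 and 10.9 CPM, 1.46, 1.19 to 1.79). All 9 MHC class II genes compared were above 1, with a median of 0.17 and Cd74 the highest at 114 and 150 CPM (1.32, 1.25 to 1.39). By sex of the cell, 3 of the 9 were 1.5-fold or more higher in female and 0 in male cells, a difference that was not tested. Of all genes 0.706% were that much higher in female and 0.790% in male cells. Cd74 was at 2.18 in female and 1.12 in male, H2-Aa at 2.34 and 0.99 and H2-Eb1 at 2.72 and 1.01. The 10 richest cells held 9.58% of Cd74 UMIs in control and 19.0% in uninduced.

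**Figure D3:**
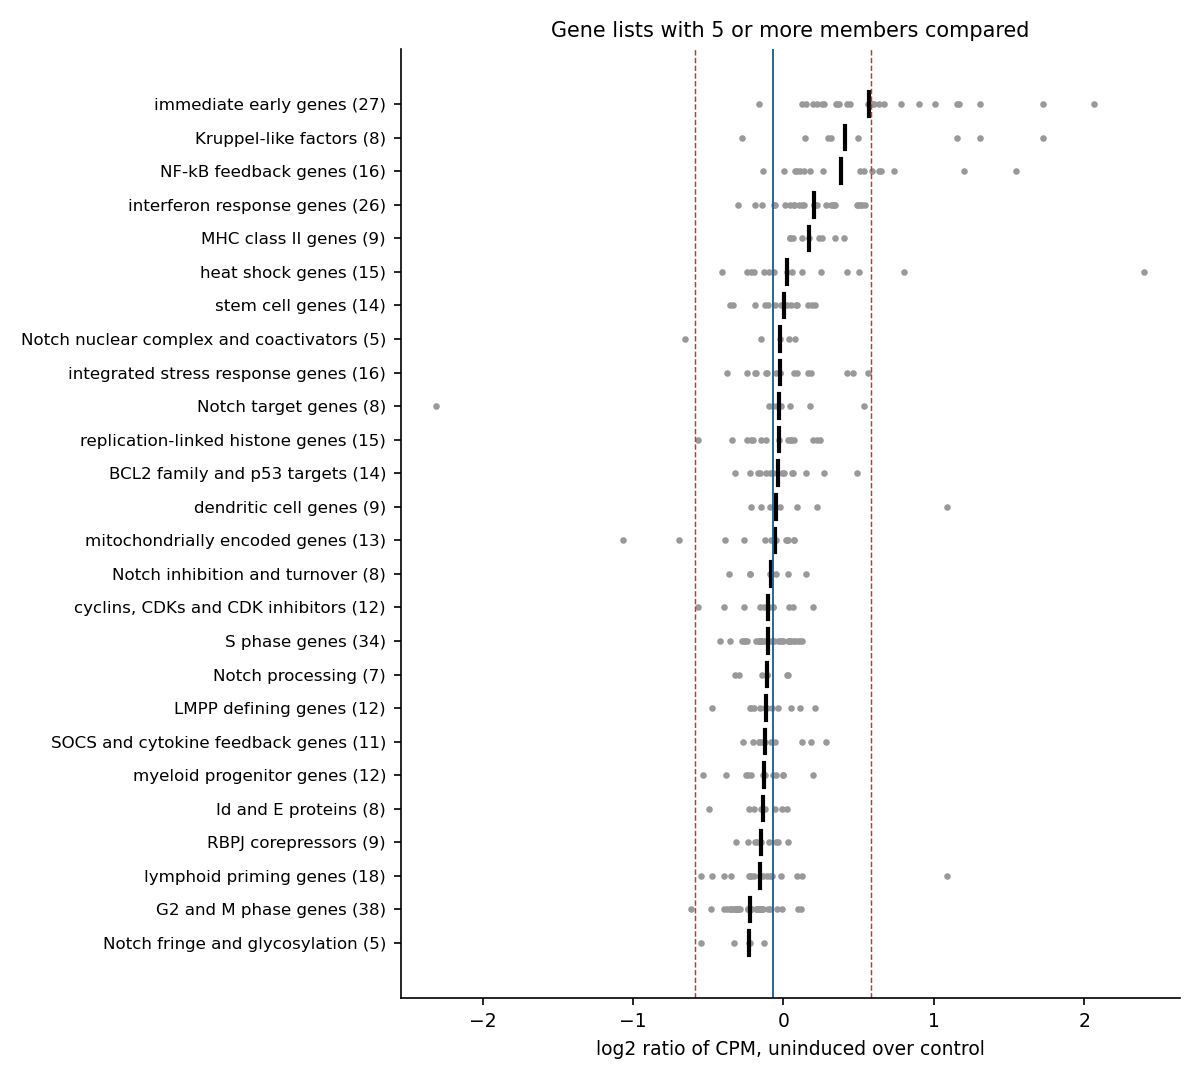
Log2 ratio of CPM (uninduced over control) for the members of each gene list with 5 or more members compared, 1 grey point per gene and a black bar at the list's median, with the number of genes in brackets. The blue line is the median of all 7224 genes and the red dashed lines mark 1.5-fold. The immediate early list lies highest at 0.57, the G2 and M phase list at -0.22.

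Below control, Dennd5b, a regulator of membrane traffic through Rab GTPases (GRCm38 chr6:148988071-149101680, minus strand), was the lowest protein-coding gene after Hes1 that was neither a named gene copy nor carried by few cells. It stood at 93.2 CPM in control, 39.1 CPM in uninduced, 32.8 CPM in 3-day and 61.5 CPM in 6-day cells (0.42, 0.39 to 0.46), and 19.7% of control and 12.3% of uninduced thinned cells held a UMI. The long noncoding RNA 2610035D17Rik (GRCm38 chr11:113043895-113201838, minus strand) stood at 30.5, 15.3, 29.0 and 30.1 CPM (0.50, 0.44 to 0.57). Over all cells it was low in the uninduced library alone. Female cells stood at 19.2, 18.1, 30.8 and 30.0 CPM in the same order, low in control too. Sag, a visual arrestin gene, was at 15.7 and 6.78 CPM (0.43, 0.35 to 0.53) and Vps8, an endosomal tethering gene, at 17.4 and 8.81 CPM (0.51, 0.42 to 0.60). Muc13, a membrane mucin, stood at 26.0, 14.7, 14.9 and 14.2 CPM (0.57, 0.49 to 0.65) and Il6st, the gp130 signalling receptor, at 12.5 and 7.07 CPM (0.56, 0.46 to 0.69). Both were named after their values were seen. Dqx1 (0.27), Gm13075 (0.48) and Gm26737 (0.52) owed their calls to few cells, with at least 50% of control UMIs in 10 cells.

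A large share of the lower genes had end sequence in common with another annotated gene. Whether that gene lay elsewhere or overlapped at the same place was not checked. Of 63 lower genes with transcripts in GENCODE vM21, 24 (38.1%) shared at least 50% of the 31-base words in their last 500 transcript bases with another gene, against 176 of 7218 genes compared (2.44%) and 0 of 38 higher genes. Counts of such genes depend on how reads with several matches were treated, which was not stated in the sources used here, so they are uncertain. Rps27rt, a retrotransposed copy of a ribosomal protein gene, stood at 1021 CPM in control, 535 CPM in uninduced, 490 CPM in 3-day and 918 CPM in 6-day cells (0.52, 0.51 to 0.54), with 92.7% of its end shared. Gm10263 (82.2 and 35.7 CPM, 0.43), Kpna2, an importin gene (24.3 and 10.6 CPM, 0.44), Nme2, a nucleoside diphosphate kinase gene (31.9 and 15.8 CPM, 0.50), Psme2b (0.53) and Rpl36-ps3 (0.53) also had at least 50% of their ends shared. Cks1brt (10.1 and 3.97 CPM, 0.39) carries the name of a retrotransposed copy but shared 6.17% of its end. The 176 genes with shared ends had a median log2 ratio of -0.11 over all of them, so the difference was in some and not in the whole class. Of the 7042 genes without shared ends, 38 were higher and 39 lower. In the mitochondrial genome mt-Atp8 stood at 310 CPM in control, 148 CPM in uninduced, 159 CPM in 3-day and 303 CPM in 6-day cells (0.48, 0.46 to 0.50), while mt-Atp6, which overlaps it and shares 99.4% of its end with another gene, was at 1.05 (1.04 to 1.06). mt-Nd6 (14.4 and 8.91 CPM, 0.62) was the other of the 13 mitochondrial genes at 1.5-fold.

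Few genes of the fixed cell cycle lists were past 1.5-fold. Ttk, a spindle checkpoint kinase gene, stood at 18.6 and 12.1 CPM (0.65, 0.56 to 0.76) and was the only one of 38 G2 and M phase genes at 1.5-fold. It did not reach 1.5-fold in cells with cycling UMIs (0.71) or with TMM factors (0.68). Outside the lists, and named after their values were seen, the centromere gene Oip5 stood at 14.3 and 8.86 CPM (0.62, 0.52 to 0.75), the kinetochore gene Ska3 at 13.6 and 8.91 CPM (0.65, 0.54 to 0.79), the replication kinase gene Cdc7 at 25.7 and 16.9 CPM (0.66, 0.57 to 0.75) and the checkpoint kinase gene Chek2 at 19.9 and 13.2 CPM (0.66, 0.57 to 0.77). The list's median log2 ratio was -0.22 and that of 34 S phase genes -0.10. Fewer uninduced cells held cycling transcripts. A UMI of Mki67, Top2a, Ube2c, Birc5, Cdk1, Ccnb1 or Ccnb2 was found in 58.8% of control (56.9 to 60.6) and 49.7% of uninduced cells (47.8 to 51.5), and after thinning to 4000 UMIs in 52.0% (50 to 54.0) and 47.6% (45.5 to 49.6). With 2 or more such UMIs required the thinned shares were 37.9% (36.0 to 39.9) and 36.2% (34.3 to 38.2), and among cells thinned to 6000 UMIs they were 69.6% and 68.6%, with overlapping intervals in both cases. Lymphoid priming genes had a median of -0.16 over 18 compared genes, with Ly6d alone at 1.5-fold and Il7r, the interleukin 7 receptor gene of lymphoid progenitors, lowest at 27.5 and 18.8 CPM (0.68, 0.60 to 0.78). Depth per cell, lower in uninduced cells, moves with these lists, and its part in them was not tested beyond the thinned values.

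The same comparison was made apart in cells without and with cycling UMIs, where cells of each class were summed by library. The class without held 1106 control and 1377 uninduced cells, with medians of 5677 and 5079 UMIs, and the class with them 1576 and 1358 cells, with medians of 10286 and 9496. Cells without cycling UMIs had 55 of 7198 genes at 1.5-fold or more above control (0.764%) and 156 below (2.17%), and at 2-fold 15 (0.208%) and 12 (0.167%). Cells with them had 30 of 7215 above (0.416%) and 80 below (1.11%), and at 2-fold 11 (0.152%) and 12 (0.166%). The class without cycling UMIs was summed from fewer UMIs, 6674064 against 16744234 in control, so that its ratios carry more counting error. Of 6802 genes compared in both classes, 25 were higher in both, 36 lower in both and 0 past the line in opposite directions.

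Hes1 was more abundant in cells without cycling UMIs in control and lower than control in both classes. It stood at 163 CPM in control and 25.6 CPM in uninduced cells without cycling UMIs (0.16, 0.13 to 0.18), and at 61.0 and 14 CPM in cells with them (0.23, 0.20 to 0.27). Klf2 stood at 196 and 711 CPM without (3.63, 3.41 to 3.85) and 163 and 493 CPM with cycling UMIs (3.03, 2.89 to 3.17). Klf6 was at 177 and 479 CPM (2.70, 2.53 to 2.89) against 116 and 247 CPM (2.14, 2.02 to 2.26). For these 3 genes the intervals of the class ratios did not overlap, and the difference from control was the larger in cells without cycling UMIs. Over the 27 immediate early genes compared 10 were 1.5-fold higher in cells without and 9 in cells with cycling UMIs, with median log2 ratios of 0.52 and 0.48, and for NF-kB feedback genes 0.32 in both. For 38 G2 and M phase genes the median of -0.22 in all cells compares with -0.10 over 39 genes within cells that held cycling UMIs.

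Genes whose ratio differed most between the classes were ranked among the 4710 genes that reached 20 CPM, in control or uninduced cells, within each class. At the end with higher ratios in cells without cycling UMIs stood Atf3 (4.69 without and 3.25 with), Micu2, a mitochondrial calcium uptake gene (1.38 and 0.98), Mpp1 (1.26 and 0.87), Tbc1d9b (1.27 and 0.88), Pds5b, a cohesin regulator gene (1.25 and 0.88), Cpsf7 (1.24 and 0.84), Abcg1, a cholesterol exporter gene (1.17 and 0.81), and Asun (1.18 and 0.82). At the opposite end stood Ubqln4 (0.60 and 0.97), Ift27 (0.82 and 1.31), E2f1, an S phase transcription factor gene (0.70 and 1.05), Chd3os (0.62 and 0.93), Ttf1 (0.61 and 0.90), 1110065P20Rik (0.81 and 1.25), Metap1 (0.71 and 1.10) and Xpnpep1 (0.57 and 0.83). Except for Atf3, none of these was past 1.5-fold in all cells. They were picked by this difference, so it is a description.

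Each library held cells of both sexes, read from Xist, the X inactivation RNA of female cells, and 4 genes of the Y chromosome. In control 969 cells were female by these transcripts (2 or more Xist UMIs, no Y-linked UMI) and 1032 male (under 2 Xist UMIs and a Y-linked UMI), and in uninduced 989 and 960. Another 34 cells in each held both, 1.27% and 1.24%, and 647 and 752 held neither. Each library therefore came from at least 1 female and 1 male mouse, which allows the comparison to be read in cells of 2 sets of animals, captured together. The split was chosen after the data had been seen, and cells of 1 library are no replicates.

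The 36 higher and 64 lower genes were called on sums that hold these same cells, so their direction in each sex is largely fixed by that choice and the counts are a description. Of the 36 higher genes, all had ratios above 1 in both sexes, and 28 were past 1.5-fold in female, 35 in male and 27 in both. Of the 64 lower genes, 63 had ratios below 1 in both, and 51 were past 1.5-fold in female, 50 in male and 38 in both. Over the same 7219 genes, 51 (0.706%) were 1.5-fold higher and 128 (1.77%) lower in female cells, 57 (0.790%) and 148 (2.05%) in male cells. Hes1 stood at 88.9 CPM in female and 86.3 CPM in male control cells and at 17.5 and 16.8 CPM in uninduced cells, with ratios of 0.20 and 0.19. Dennd5b stood at 93.3 and 84.8 CPM in control and 42.0 and 36.4 CPM in uninduced cells. In both genes the sexes lay close together and the libraries apart. For 29 of the 36 higher genes both uninduced levels lay above both control levels, and for 62 of the 64 lower genes both lay below. Over all genes the shares were 11.2% and 35.5%, but the called genes were picked for their difference, so nothing is read from the gap.

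The stress genes also differed between the sexes within the control library. Klf2 stood at 92.5 CPM in female and 233 CPM in male control cells, and at 320 and 783 CPM in uninduced cells, so that both uninduced levels lay above both control levels. Klf6 stood at 58.4 and 182 CPM in control and 188 and 424 CPM in uninduced cells, where the male control level came near the female uninduced level. Atf3 stood at 4.96 and 15.5 CPM in control and 36.5 and 53.5 CPM in uninduced cells. Hspa1a stood at 0.634 CPM in female and 18.1 CPM in male control cells and at 22.2 and 91.1 CPM in uninduced cells, with ratios of 35.1 (15.8 to 96.7) and 5.03 (4.22 to 6.03). Of the 36 higher genes, 18 were 1.5-fold or more higher in male than in female control cells and 1 was lower, against 80 (1.11%) and 37 (0.513%) of all 7219 genes. Of the 64 lower genes the numbers were 4 and 3. In 2610035D17Rik the difference from control was in male cells, at 38.3 CPM in control and 13.5 CPM in uninduced (0.35), while female cells stood at 19.2 and 18.1 CPM (0.94). Muc13 likewise stood at 26.5 and 8.05 CPM in male (0.30) and 28.3 and 23.3 CPM in female cells (0.82). Whether sex, animal or handling of the animal moved these genes was not tested, since the labels tie no cell to a mouse. Median depth was 9064 UMIs in female and 7791 in male control cells, and 8485 and 6519 in uninduced cells. Control and uninduced cells in neither class had medians of 6348 and 5182 UMIs. The part of depth in the differences between the sexes was not tested.

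**Figure D4:**
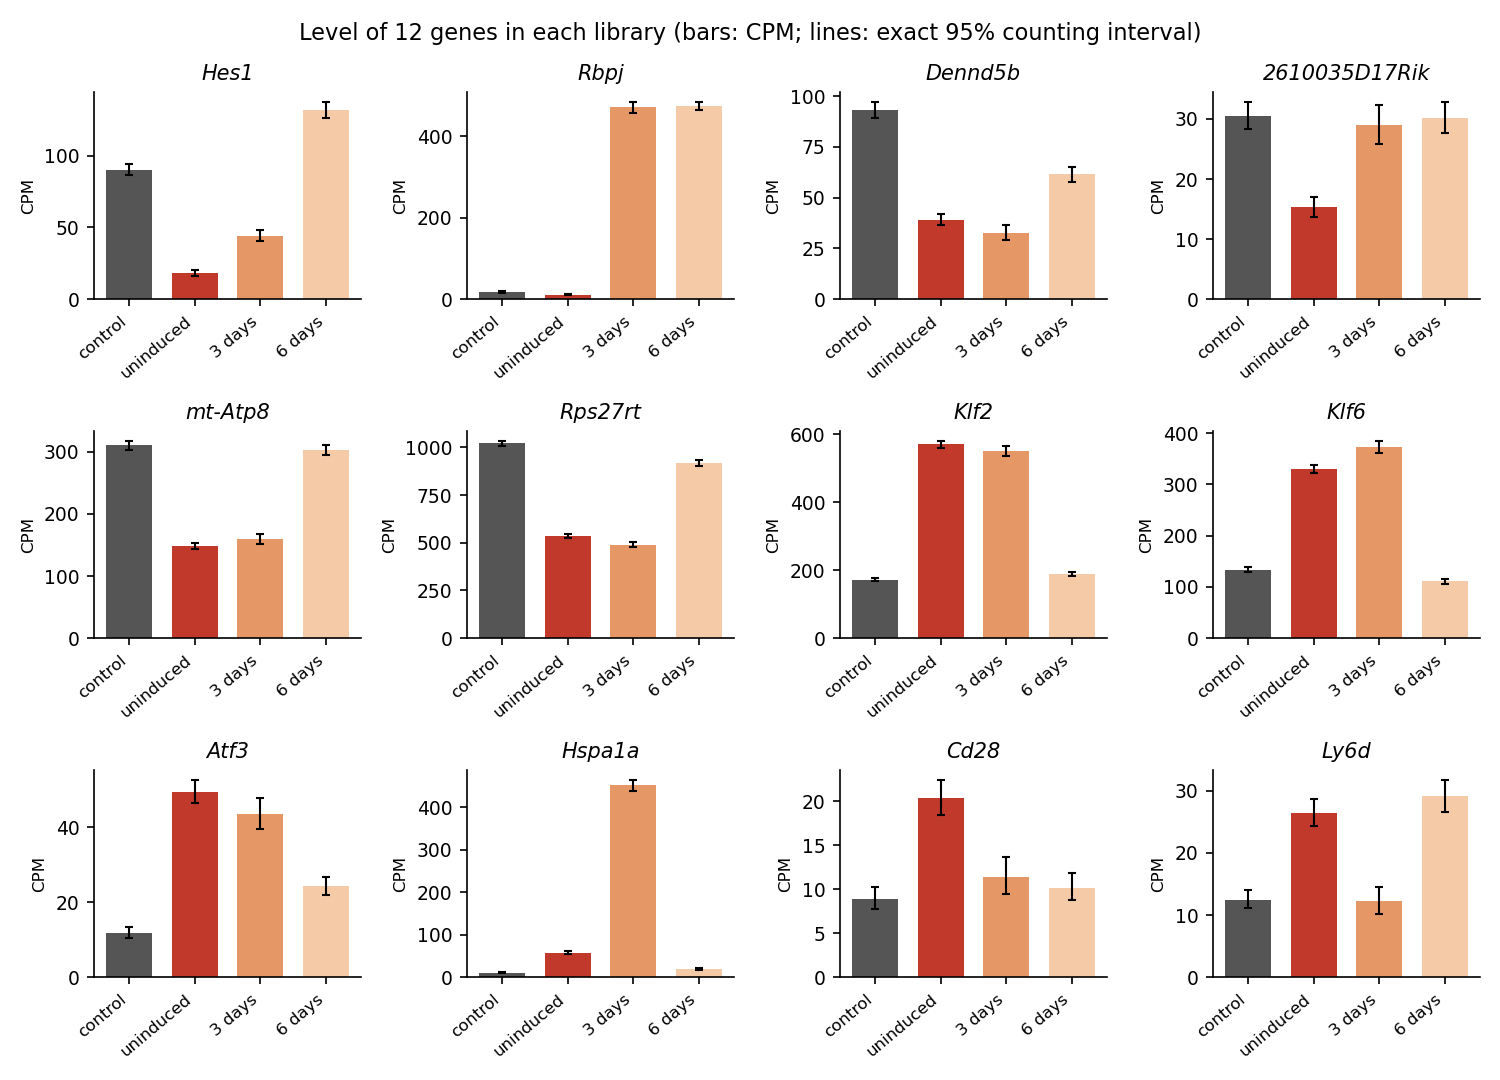
Levels of 12 genes in each of the 4 libraries in CPM, with bars from 0 and lines for the exact Poisson 95% interval. Hes1 and Cd28 set the uninduced library apart, at 18.2 and 20.4 CPM, while Klf2, Klf6, mt-Atp8 and Rps27rt have similar levels in uninduced and 3-day cells and similar levels in control and 6-day cells.

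The 3-day and 6-day libraries give a pair that shares no library with the comparison of uninduced and control cells, and both of its groups had been induced, with Rbpj UMIs in a minority of cells of each. Over the 64 lower genes the ratio of 3-day to 6-day cells was below 1 in 59, at least 1.5-fold lower in 24 and higher in 0, with a median log2 of -0.46. Over the 36 higher genes it was above 1 in 21, at least 1.5-fold higher in 13 and lower in 5, with a median of 0.18. Of all 7219 genes 41 (0.568%) were higher and 104 (1.44%) lower, with a median of 0.02. The lower genes thus mostly had the same direction in both pairs, while the higher genes were mixed. By Xist and Y-linked transcripts, 32.6% of 3-day and 52.4% of 6-day cells were female, and 39.1% and 26.1% were male. The part of this unequal sex mix in the ratios was not tested. By group, 10 of 27 immediate early genes were 1.5-fold higher in 3-day than in 6-day cells and 4 lower, with a median log2 of 0.32. Of the NF-kB feedback genes 0 of 16 were higher and 4 lower, with a median of -0.13. Cd28 had a ratio of 1.12 in this pair and Lgmn, at 21.7 and 19.0 CPM, of 1.14, so neither reached 1.5-fold. Ly6d, at 12.2 CPM in 3-day and 29.1 CPM in 6-day cells, went the opposite way. The labels name no day or batch of capture for any library, and a shared batch or handling of control and 6-day or of uninduced and 3-day cells was not tested.

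**Figure D5:**
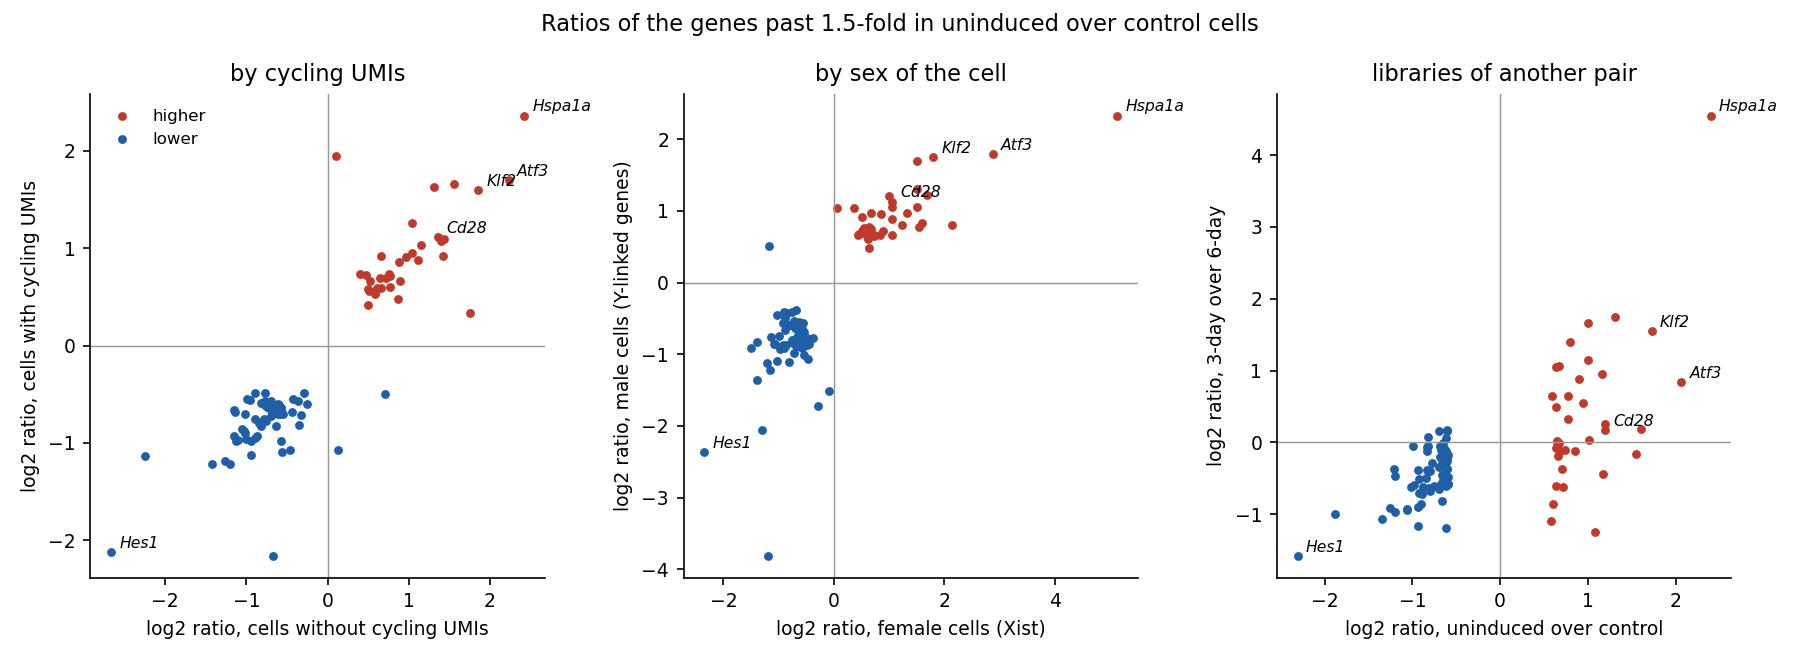
Log2 ratios of the 36 higher genes (red) and 64 lower genes (blue), 1 point per gene, in cells without against with cycling UMIs (left, uninduced over control; Ankle1, at 0 UMIs in uninduced cells without cycling UMIs, is not drawn), in female against male cells (middle, uninduced over control), and for uninduced over control against 3-day over 6-day (right). Left and middle, nearly all points lie in the quadrants of equal sign; on the right 59 of 64 blue points lie below 0.

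The promoters of the called genes were searched for the RBPJ motif, over the 250 bases before each RefSeq start on both strands. Hes1 and Cd28 have no entry in the table. The core TGGGAA was found in 19.5% of 5636 promoters of compared genes, in 7 of 26 of the higher (26.9%) and in 6 of 39 of the lower genes (15.4%). The longer GTGGGAA, which contains the core, was found in 5.0% of all, 1 of the higher (3.85%) and 3 of the lower genes (7.69%). The cyclic AMP response element TGACGTCA, bound by the CREB and ATF family, was found in 3.05% of all, 2 of the higher (7.69%) and 0 of the lower genes, and the AP-1 motif TGACTCA in 2.59%, 3.85% and 5.13%. The 4 matches to GTGGGAA and the 2 to TGACGTCA in called genes are printed with 12 bases on each side, read 5′ to 3′ on the gene's strand in GRCm38.p6, with the match in capitals. TTCCCAC is GTGGGAA on the opposite strand.
Snhg9: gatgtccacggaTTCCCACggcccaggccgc
Rps27rt: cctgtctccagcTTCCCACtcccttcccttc
Myo1c: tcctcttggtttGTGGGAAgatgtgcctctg
Plk2, RBPJ motif: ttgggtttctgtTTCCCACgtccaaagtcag
Plk2, cyclic AMP element: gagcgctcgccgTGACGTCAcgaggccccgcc
Dusp1: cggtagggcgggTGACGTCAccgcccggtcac
They lie at chr17:24720162-24720192 (minus strand) for Snhg9, chr9:114982791-114982821 (minus) for Rps27rt, chr11:75650270-75650300 (plus) for Myo1c, chr13:110394820-110394850 and chr13:110394970-110395001 (plus) for Plk2 and chr17:26508596-26508627 (minus) for Dusp1. Of these genes Snhg9, a small nucleolar RNA host gene, stood at 97.2 CPM in control, 51.4 CPM in uninduced, 53.2 CPM in 3-day and 86.8 CPM in 6-day cells (0.53, 0.49 to 0.57), and Myo1c, a motor protein gene, at 32.6, 19.3, 17.2 and 26.2 CPM (0.59, 0.52 to 0.67). For both genes uninduced and 3-day cells were low and control cells highest. A match is a run of letters and not a measured binding site.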

How the data were processed

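The members, gene lists and rules were chosen with earlier results of these data known. The deposited matrices hold whole UMI counts per gene and barcode for 27998 genes, which the authors left unnormalized. The deposited log2 values, which the authors computed per cell from these counts, were used only to define the cells. Per the submitters' processing notes, Seurat and the build mm10 were used, at steps that are not given. The aligner and annotation are not given in the sources used here. Doublets were kept and no caller was run.

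Counts were summed per library over kept cells and scaled to CPM with Python 3.11.15, numpy 2.4.6, scipy 1.17.1 and pandas 2.3.3. Called means a CPM ratio of at least 1.5, or at most its inverse, at 10 CPM or more in either library. Levels carry exact Poisson intervals, ratios the conditional exact interval and shares Clopper-Pearson intervals. Thinning drew 4000 UMIs per cell without replacement (seed 7). No test across cells was made. Named were the 15 highest and 15 lowest ratios, leaving out sex-linked, haemoglobin, antigen receptor and filter marker genes and those with at least 50% of UMIs in 10 cells, the Notch genes past 1.5-fold and receptors, up to 4 members each way per list, the 8 genes each way that differed most between cycling classes, LMPP genes, Xist and Ddx3y, and the 5 genes highest in Hes1-positive control cells. Xist was at 1.09 and Ddx3y at 1.15. Other genes named were chosen after their values were seen. Of 38 lists, those not described above held no gene past 1.5-fold, other than Ly6d on the B lineage and dendritic cell lists and Ccl5 on the NK and innate lymphoid list. Scaling alternatives used edgeR 4.0.16 and DESeq2 1.42.0 in R 4.3.3, for factors only. The ratio and its interval were tested on simulated Poisson counts, the model that the interval assumes. Clustering of UMIs in single cells was not simulated, so the test does not cover it.

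Gene positions come from GENCODE vM21, matched by Ensembl identifier, and promoter sequences from RefSeq on GRCm38.p6, matched by symbol for 5636 of 7224 genes.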

Additional observations from a re-analysis of the deposited data

Results flagged for a closer look

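A signal outside the comparison was larger in the uninduced than in the control library. The cells left out for 10 or more UMIs of neutrophil, erythroid, granule and platelet markers were 34 of 2769 uninduced cells, or 1.23% (0.852 to 1.71, exact binomial), against 11 of 2693 control cells, or 0.408% (0.204 to 0.730). With these cells kept, 54 genes in place of 38 were at least 1.5-fold higher. Near the limit of 10 UMIs, 3 control and 1 uninduced cells held 7 to 9 marker UMIs, and 1 cell in each library held 10 to 12.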

How the results depend on the processing

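No paired analysis was possible because control and uninduced cells come from 1 library each, so none could be left out either. The Hes1 and Rbpj ratios and the medians of the immediate early, NF-kB feedback, Kruppel-like and interferon lists kept their direction under all 11 alternatives run for them, within the counting interval of the ratio or the rank interval of the members' median. The count of lower genes moved from 64 to 41 with DESeq2 size factors, 97 in thinned cells, 123 at 5 CPM, 34 at 20 CPM and 40 without genes whose ends are shared. Of the calls themselves, 26 of the 38 higher and 52 of the 64 lower remained past 1.5-fold in thinned cells, and 43 of the 64 lower with TMM factors. With no minimum 781 genes were higher and 829 lower. Female cells alone gave 58 higher and 137 lower and male cells 64 and 165, with the minimum applied within them, a split chosen after seeing the data. In cells without cycling UMIs the 55 higher genes became 107 at 5 CPM and 33 at 20 CPM, and the 156 lower became 102 with TMM, 96 with DESeq2 factors, 324 at 5 CPM and 61 at 20 CPM. In cells with cycling UMIs the 30 higher became 48 with TMM and with DESeq2 factors and 49 at 5 CPM, and the 80 lower became 52, 51 and 169, and 37 at 20 CPM. The G2 and M phase median of -0.22 became -0.15 with TMM and -0.15 with DESeq2 factors, -0.12 in thinned cells, -0.10 with control's class weights, -0.31 in female and -0.067 in male cells. The lymphoid priming median of -0.16 became -0.24 in female and -0.040 in male cells. The share of cells with a cycling UMI, 52.0% in control and 47.6% in uninduced, became 58.8% and 49.7% unthinned, 46.3% and 40.9% at 3000 UMIs, 69.6% and 68.6% at 6000, and 37.9% and 36.2% with 2 or more UMIs. Turns of direction were counted only for genes past 1.5-fold. Some named genes nearer to equal crossed 1, among them Ccr9, at 1.07 in all and 0.49 in female cells. Of the named genes past 1.5-fold Gm26737 alone turned direction, to 1.42 in male cells. The cause was not tested. Depth limits genes near 10 CPM.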
